A study of Mus musculus with 35 samples.

Results

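The genes described here are 6 CC chemokine genes and the CX3C chemokine gene of the mouse, namely Ccl2, Ccl7, Ccl8, Ccl9, Ccl11, Ccl20 and Cx3cl1. They were chosen by symbol, with earlier results of these data known. Each symbol matched 1 row in each of the 4 deposited tables, so that 7 of 55487 genes were followed. The tables hold 35 RNA-Seq libraries. Of these, 27 are of cardiac fibroblasts (CFs) isolated enzymatically from the hearts of adult mice and cultured. The CFs were transfected with a control siRNA (si-NC) or with 1 of 2 siRNAs, si-IAMP-1 and si-IAMP-2, against 4930523C07Rik, the gene of the IAMP micropeptide, and were left untreated or given IL-17 or TGF-β, with 3 libraries in each of the 9 groups. For the IL-17 cells the labels give 24 h of siRNA and then 24 h of IL-17, and for the untreated and TGF-β cells no such times were found. The other 8 libraries are of hearts of 8-week-old C57BL/6 mice, 4 from animals heterozygous for a CRISPR frameshift allele of IAMP (Het) and 4 from homozygous knockouts (KO). The Het controls therefore carry 1 mutant allele themselves. Nothing in the labels states that the 3 libraries of a CF group came from separate isolations, and the p values below then measure only the spread between these samples, which may be technical.

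Chemokines are small secreted proteins that bind G protein–coupled receptors on leukocytes and draw them along a gradient into tissue. CCL2 and CCL7 act on CCR2 of inflammatory monocytes, CCL8 acts on CCR8 in the mouse, CCL9 on CCR1, CCL11 (eotaxin) on CCR3 of eosinophils, and CCL20 on CCR6 of lymphocytes and dendritic cells. CX3CL1 (fractalkine) is made as a membrane protein with its chemokine domain on a mucin stalk, is shed by ADAM10 and ADAM17, and binds CX3CR1 of monocytes and macrophages. Fibroblasts are a known source of CC chemokines in the injured heart, and IL-17 is known to raise several of them.

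A CF library held 104139670 to 119232309 estimated counts and a heart library 23497027 to 23857313. For CFs it was assumed, and not checked against the reads, that 1 read pair gives up to 6 estimated counts, so that the floor of detection in 1 library was set at 3 pairs, that is 18 estimated counts, with 3 counts for a heart library. The bounds given for Ccl11 rest on this floor. Levels are CPM, that is counts relative to a library total scaled by TMM, over the 27 CF libraries together and over the 8 hearts together. The targeted gene fell with both siRNAs in each table. In untreated CFs 4930523C07Rik was at 23.6 ± 2.01 CPM with si-NC, 3.01 ± 0.491 CPM with si-IAMP-1 and 1.83 ± 0.0658 CPM with si-IAMP-2 (SD, n = 3). Its heart level was 17 ± 1.27 CPM in Het animals and 16 ± 0.938 CPM in KO animals (SD, n = 4), and since a frameshift need not lower a transcript this level does not check the genotype. All 9 fibroblast markers looked at (Col1a1, Col1a2, Col3a1, Pdgfra, Dcn, Lum, Tcf21, Ddr2 and Thy1) reached 1 CPM in every CF group, with summed levels of 12000 to 12300 CPM in untreated si-NC libraries and 17200 to 18100 and 16500 to 16700 CPM with the siRNAs. Of 9 cardiomyocyte markers, 1 (Tnnt2) reached 1 CPM in each CF group and Myh6 and Myl3 were at 0 in all untreated si-NC libraries, with summed levels of 91.1 to 98.9 CPM with si-NC and 42.8 to 47.5 and 28.1 to 33 CPM with the siRNAs. In hearts all 9 reached 1 CPM, with sums of 49400 to 53400 CPM in Het and 49400 to 51900 CPM in KO. In untreated CFs the fibroblast and cardiomyocyte sums of si-NC and siRNA libraries did not overlap, and the part of this in the results was not tested.

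In the GRCm38 annotation used here, 4 of the 7 genes lie side by side on the plus strand of chromosome 11, within 81.2 kb from 82035571 to 82116799. Their order is Ccl2 (82035571 to 82037453), Ccl7 (82045712 to 82047525), Ccl11 (82057823 to 82062955), Ccl12 (82101845 to 82103400), which is not among the 7, and Ccl8 (82115185 to 82116799). Ccl9 has its own place further along (83572919 to 83578636, minus strand). Ccl20 is on chromosome 1 (83116766 to 83119167, plus strand) and Cx3cl1 on chromosome 8 (94772009 to 94782427, plus strand). The Ccl2 locus overlaps Gm17268 on the other strand, with no exon in common. Of the 50-base words of the 7 transcripts, only those of Ccl9 had copies in transcripts of other genes, 59 of 2996.

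Start regions of 4 of the genes, 250 bases before to 50 after the start site, were taken from RefSeq (GRCm38.p6). They are printed 5′ to 3′ on the strand of the gene. These 4 were the members with an entry under their names and were not picked for their direction of change. The capitals mark letters that match an NF-kB motif, AP-1 (TGANTCA) or C/EBP (TTNNGNAA), searched on both strands, and the hypoxia response element core (ACGTG) was searched as well. Ccl20 is at chr1:83116516-83116815, Cx3cl1 at chr8:94771930-94772229, Ccl8 at chr11:82114935-82115234 and Ccl9, on the minus strand, at chr11:83578587-83578886. The RefSeq start of Cx3cl1 lies downstream of the gene start given above.
Ccl20: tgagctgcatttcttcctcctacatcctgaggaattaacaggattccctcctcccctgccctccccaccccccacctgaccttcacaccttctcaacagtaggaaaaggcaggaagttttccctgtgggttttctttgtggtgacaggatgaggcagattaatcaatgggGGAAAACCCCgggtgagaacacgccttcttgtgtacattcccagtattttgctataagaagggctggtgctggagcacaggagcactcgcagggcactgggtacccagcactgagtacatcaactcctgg
Cx3cl1: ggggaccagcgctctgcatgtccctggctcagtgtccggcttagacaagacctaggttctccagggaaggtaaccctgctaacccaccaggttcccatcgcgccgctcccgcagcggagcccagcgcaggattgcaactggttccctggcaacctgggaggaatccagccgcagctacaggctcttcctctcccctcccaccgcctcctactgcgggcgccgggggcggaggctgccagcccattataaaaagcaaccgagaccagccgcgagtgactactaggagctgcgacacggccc
Ccl8: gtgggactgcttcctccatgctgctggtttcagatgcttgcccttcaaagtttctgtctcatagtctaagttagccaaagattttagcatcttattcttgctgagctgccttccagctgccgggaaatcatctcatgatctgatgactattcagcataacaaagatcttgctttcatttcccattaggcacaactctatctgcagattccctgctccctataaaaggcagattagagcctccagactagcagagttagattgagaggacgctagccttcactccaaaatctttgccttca
Ccl9: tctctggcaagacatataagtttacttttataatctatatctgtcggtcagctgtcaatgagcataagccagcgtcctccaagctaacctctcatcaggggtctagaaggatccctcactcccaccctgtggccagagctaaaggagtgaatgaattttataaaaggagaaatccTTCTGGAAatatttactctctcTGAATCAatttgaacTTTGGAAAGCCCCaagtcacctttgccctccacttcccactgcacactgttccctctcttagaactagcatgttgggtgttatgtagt
Ccl20 held 1 NF-kB match, from -80 to -71 relative to the start site. Ccl9 held 1 NF-kB match from -35 to -26, 1 AP-1 match from -53 to -47 and 2 C/EBP matches, of which the one from -38 to -31 overlapped the NF-kB match. Cx3cl1 and Ccl8 held none of these letters in this window, and none of the 4 held ACGTG. Of 32851 promoters of the same length, 8.46% held an NF-kB match, 7.81% AP-1, 40.7% C/EBP and 19.6% ACGTG. All 4 windows held the letters TATAA, not shown in capitals, as did 24.9% of promoters. On the strand of the gene they lay at -32 to -28 in Ccl8, at -28 to -24 in Ccl20, at -6 to -2 in Cx3cl1 and at -236, -222 and -92 (first base) in Ccl9. These matches describe letters and not bound sites. Ccl2, Ccl7 and Ccl11 had no entry under their names.

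The 7 genes spanned a wide range of levels. Per kilobase of exon, which allows genes to be compared, Ccl2 had the highest mean of the 7 in untreated si-NC CFs with 185 CPM per kb, followed by Ccl7 with 29.7, Ccl9 with 22.8 and Cx3cl1 with 19.7 CPM per kb. Ccl8 and Ccl20 were at 0.774 and 0.301 CPM per kb, and Ccl11 was listed at 0 in all 3 libraries. In TGF-β si-NC CFs Ccl2 and Ccl7 were again first with 1408 and 749 CPM per kb, and Ccl8 followed them with 65.3 CPM per kb, whereas in TGF-β si-IAMP-1 CFs Ccl7 stood above Ccl2, at 1519 against 1439 CPM per kb. In Het hearts the order was another one, with Ccl9 first at 4.26 CPM per kb, Cx3cl1 at 2.61 and Ccl2 at 1.09 CPM per kb.

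**Figure D1:**
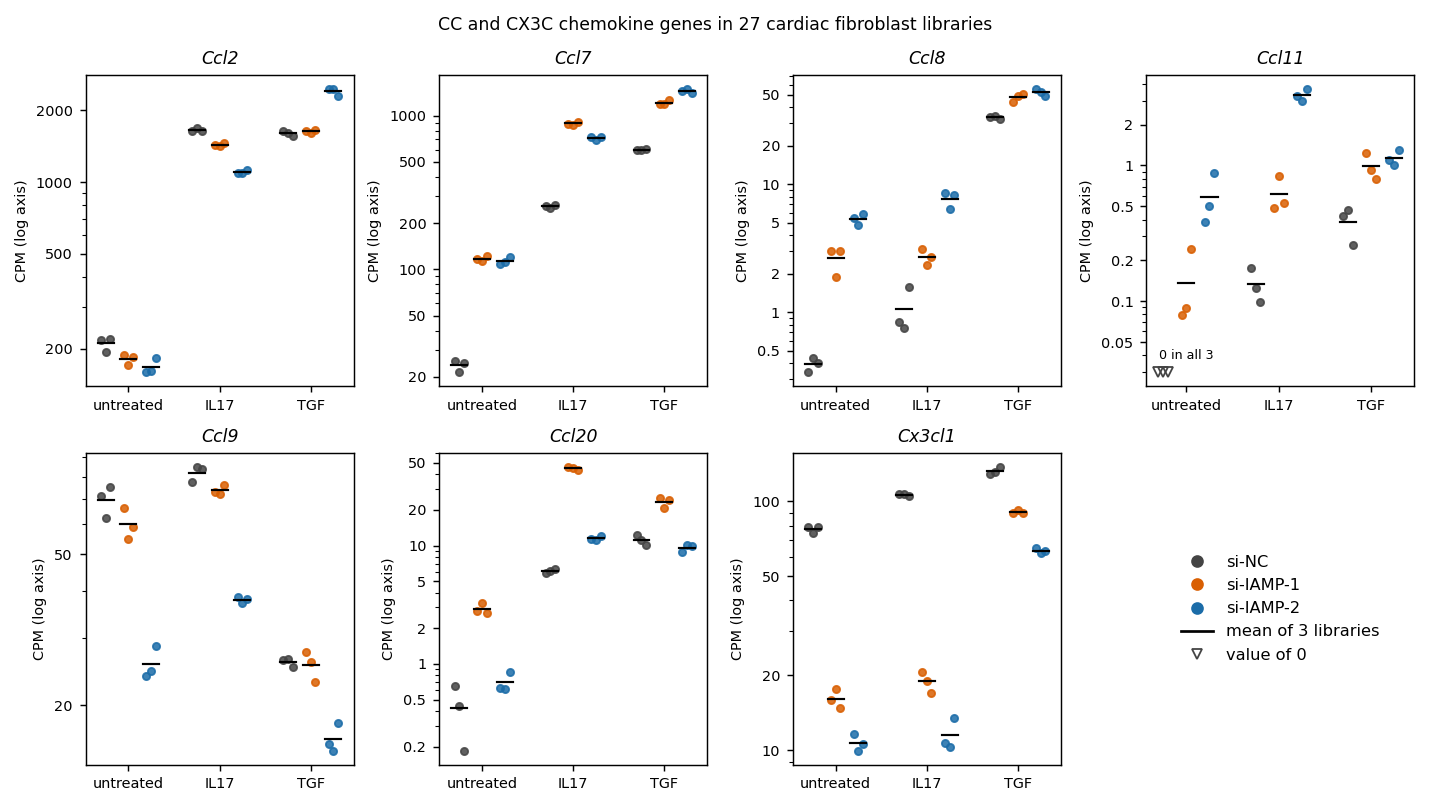
CPM of each gene in the 27 CF libraries on a log axis, 1 panel per gene, with untreated, IL-17 and TGF-β cells from left to right; each point is 1 library, the bars are means of 3 libraries, and open triangles stand for values of 0. Ccl7 is higher with both siRNAs than with si-NC in each table, Cx3cl1 is lower in each table, and Ccl20 is highest with si-IAMP-1.

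Each siRNA was compared with si-NC within a table by edgeR's quasi-likelihood test over all genes that passed the count filter, and a gene was called at a Benjamini-Hochberg adjusted p of at most 0.05 where the log2 fold change was also 1 or more in size in untreated CFs, or 0.585 or more (1.5-fold) under IL-17 and TGF-β. All 7 genes passed the filter in each CF table. In untreated CFs 5 of 7 were called with si-IAMP-1 (4 higher and 1 lower) and 5 of 7 with si-IAMP-2 (3 higher and 2 lower), where 4.76% and 10.7% of 19669 genes were called. With only the si-NC and si-IAMP-1 libraries in the fit, Ccl11 failed the filter. Then 4 of 6 members were called, beside 4.81% of 18893 genes. With a filter at 1 CPM or values divided by 6, Ccl11 was not tested in untreated CFs either. Each siRNA then had 4 of 6 members called, beside 4.43% and 5.02% of genes with si-IAMP-1 and 11% and 11.7% with si-IAMP-2. In IL-17 CFs 5 of 7 were called with si-IAMP-1 (4 higher and 1 lower) and 6 of 7 with si-IAMP-2 (4 higher and 2 lower), beside 13.5% and 21.7% of 19906 genes. In TGF-β CFs 3 of 7 were called with si-IAMP-1, all higher, and 6 of 7 with si-IAMP-2 (4 higher and 2 lower), beside 4.36% and 7.51% of 19891 genes. The median log2 fold changes of the 7 genes were 2.30 and 0.70 in untreated, 1.36 and 0.94 in IL-17 and 0.53 and 0.60 in TGF-β CFs, and those of all genes tested lay between -0.020 and 0.014. The first of these medians is the value of Ccl7. Without Ccl11, whose value was fitted against zeros, it was 1.05 over 6 genes. The 2 siRNAs share the si-NC libraries within each table, so that their contrasts are not independent of each other. Since the 7 genes were chosen with earlier results of these data known, their counts describe these genes and not CC chemokine genes at large.

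**Figure D2:**
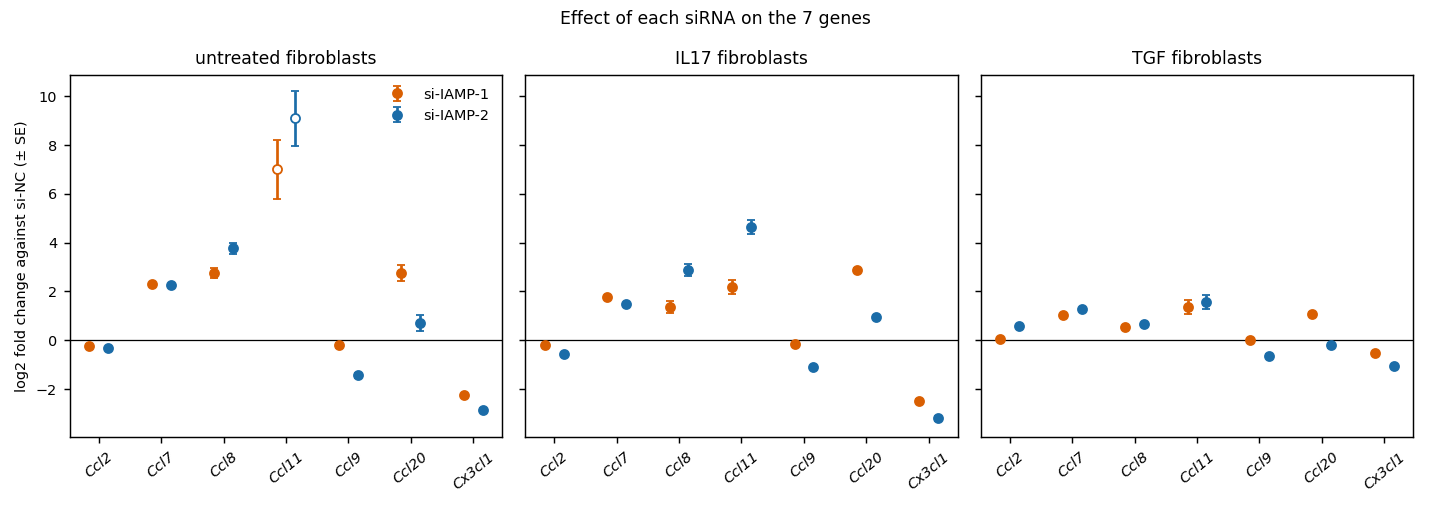
Log2 fold change of each gene with si-IAMP-1 and si-IAMP-2 against si-NC in untreated, IL-17 and TGF-β CFs, with standard errors (3 libraries per group). Open circles mark Ccl11 in untreated CFs, where si-NC was 0 in all 3 libraries and the fitted value is no measure of size, and in IL-17 CFs the si-NC mean of Ccl11 is under the floor; Ccl7 lies above 0 and Cx3cl1 below 0 in all 3 panels.

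Ccl7, which recruits monocytes, was called higher with both siRNAs in all 3 tables, while its neighbour Ccl2, which acts on the same receptor, was not called in 5 of the 6 contrasts against si-NC. Ccl7 was at 25.3, 21.4 and 24.6 CPM with si-NC, 117, 113 and 121 CPM with si-IAMP-1 and 109, 112 and 121 CPM with si-IAMP-2 in untreated CFs. The libraries of both siRNAs lay far above those of si-NC and overlapped each other. In IL-17 CFs Ccl7 was at 258, 252 and 261 CPM with si-NC, 884, 872 and 912 CPM with si-IAMP-1 and 726, 698 and 726 CPM with si-IAMP-2, and in TGF-β CFs at 593, 596 and 610.4 CPM with si-NC, 1186, 1195 and 1269.5 CPM with si-IAMP-1 and 1446, 1496 and 1395 CPM with si-IAMP-2. No knockdown library reached down to the si-NC libraries of its table. The log2 fold change against si-NC was 2.3 (SE 0.0566, adjusted p = 2.92e-14) and 2.26 (SE 0.0565, adjusted p = 1.22e-14) in untreated CFs, or 4.94-fold and 4.79-fold. It was 1.79 and 1.49 under IL-17 and 1.04 and 1.28 under TGF-β, with standard errors of 0.029 to 0.037.

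Ccl2, the monocyte attractant, was at 218, 194 and 220.3 CPM with si-NC, 189, 171 and 184 CPM with si-IAMP-1 and 159, 161 and 184 CPM with si-IAMP-2 in untreated CFs. The si-IAMP libraries were all below the si-NC libraries, by less than the fold set for a call, with log2 fold changes of -0.22 (SE 0.0656, adjusted p = 0.0219) and -0.33 (SE 0.0656, adjusted p = 0.00156). Under IL-17 Ccl2 was at 1636, 1693 and 1631 CPM with si-NC, 1427, 1416 and 1455 CPM with si-IAMP-1 and 1091, 1091 and 1125 CPM with si-IAMP-2, with log2 differences from si-NC of -0.21 (SE 0.0263, adjusted p = 5.63e-06) and -0.58 (SE 0.0264, adjusted p = 6.61e-12). The second of these lay just inside the fold threshold of 0.585 and passed it when IL-17 si-IAMP-2 replicate 3, si-NC replicate 1 or si-NC replicate 3 was left out, with values of -0.60, -0.59 and -0.59. Under TGF-β the order was another one, with Ccl2 at 1635, 1613 and 1559 CPM with si-NC, 1643, 1612 and 1657 CPM with si-IAMP-1 and 2458, 2465 and 2287 CPM with si-IAMP-2. There Ccl2 was called higher with si-IAMP-2, by 0.60 (SE 0.0356, adjusted p = 1.15e-09), and was at 0.046 (SE 0.0355, adjusted p = 0.433) with si-IAMP-1. The call with si-IAMP-2 was lost without TGF-β si-IAMP-2 replicate 1, si-IAMP-2 replicate 2 or si-NC replicate 3, where the value was 0.58 each time.

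The ratio of Ccl7 to Ccl2 within a library does not depend on the scaling between libraries. In untreated CFs there were 11.3 ± 0.279 estimated counts of Ccl7 per 100 of Ccl2 with si-NC, 64.7 ± 2.53 with si-IAMP-1 and 67.8 ± 1.78 with si-IAMP-2 (SD, n = 3). In IL-17 CFs the ratios were 15.6 ± 0.584, 62.1 ± 0.53 and 65 ± 1.34, and in TGF-β CFs 37.4 ± 1.51, 74.3 ± 2.22 and 60.2 ± 1.18. The 18 knockdown libraries thus held 58.8 to 76.6 per 100 and the 9 si-NC libraries 11 to 39.1.

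**Figure D3:**
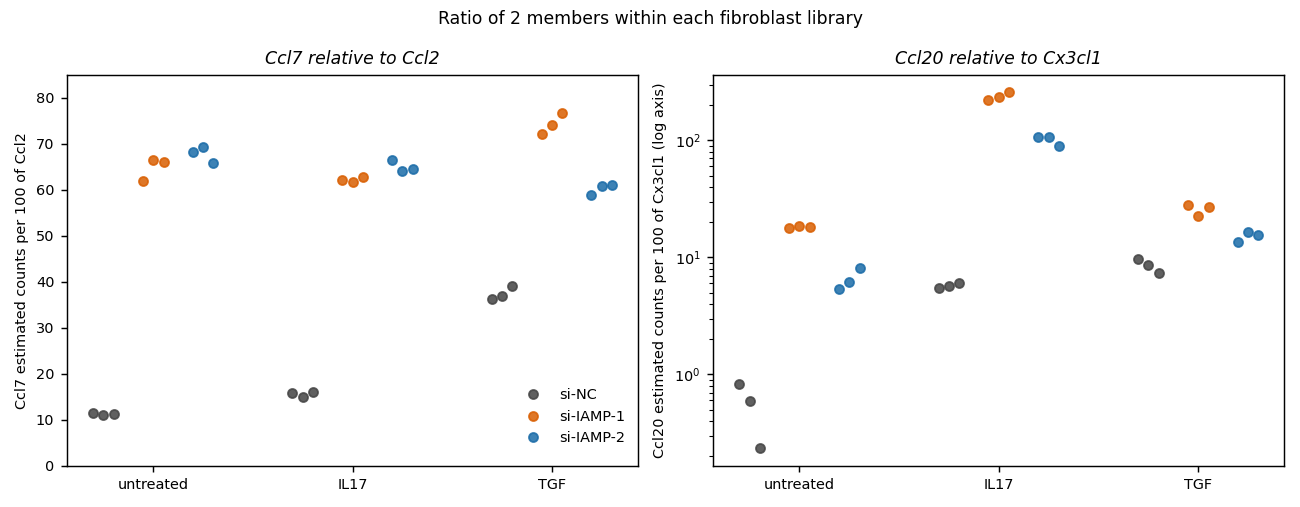
Ratio of estimated counts of Ccl7 to Ccl2 (left, linear axis) and of Ccl20 to Cx3cl1 (right, log axis) within each of the 27 CF libraries, each point 1 library. In untreated and IL-17 CFs the Ccl7 ratio lies at 11 to 16 with si-NC and at 61.6 to 69.3 with the siRNAs, and the Ccl20 ratio is higher with si-IAMP-1 than with si-IAMP-2 in all 3 tables.

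Ccl8 and Ccl11, which lie after Ccl7 on chromosome 11, were low in untreated si-NC CFs and higher with the siRNAs, in most contrasts more with si-IAMP-2. Ccl8 was at 0.341, 0.443 and 0.403 CPM with si-NC, 3.03, 1.89 and 3.03 CPM with si-IAMP-1 and 5.44, 4.84 and 5.85 CPM with si-IAMP-2 in untreated CFs. In IL-17 CFs it was at 0.841, 0.761 and 1.57 CPM with si-NC, 3.14, 2.33 and 2.7 CPM with si-IAMP-1 and 8.52, 6.43 and 8.19 CPM with si-IAMP-2, where si-NC replicate 3 stood apart from the other si-NC libraries. In TGF-β CFs, where all libraries were high, it was at 33.6, 33.9 and 32.6 CPM with si-NC, 44.2, 48.7 and 50.4 CPM with si-IAMP-1 and 55.7, 52.6 and 48.5 CPM with si-IAMP-2. No knockdown library fell into the range of si-NC in its table. Over the 9 groups, TGF-β si-IAMP-2 and TGF-β si-IAMP-1 overlapped at the top of the order, as did IL-17 si-IAMP-1 and untreated si-IAMP-1, and the other neighbours did not. The log2 fold change of Ccl8 was 2.74 (SE 0.204, adjusted p = 1.27e-08) and 3.76 (SE 0.207, adjusted p = 1.25e-10) in untreated CFs and 1.36 (SE 0.237, adjusted p = 0.00031) and 2.88 (SE 0.24, adjusted p = 1.59e-07) in IL-17 CFs. In TGF-β CFs it was called only with si-IAMP-2, at 0.66 (SE 0.0595, adjusted p = 1.74e-07), and was at 0.53 (SE 0.0595, adjusted p = 3.69e-06) with si-IAMP-1, below the fold threshold. Without TGF-β si-IAMP-1 replicate 1 the latter came to the threshold of 0.585 and was called.

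Ccl11, the eosinophil attractant, was listed at 0 in the 3 untreated si-NC libraries. With si-IAMP-1 it had 9, 10 and 27 estimated counts, a mean under the floor of 18, so that no fold is given although the test across all genes called it (adjusted p = 0.000237). With si-IAMP-2 it had 45, 58 and 101 estimated counts and was at least 3.96-fold higher than with si-NC, taken at the floor of 1 library (adjusted p = 6.33e-06). In IL-17 CFs Ccl11 was at 0.177, 0.125 and 0.099 CPM with si-NC, 0.483, 0.831 and 0.531 CPM with si-IAMP-1 and 3.26, 2.99 and 3.67 CPM with si-IAMP-2, and the 9 libraries formed 3 ranges that did not overlap. The si-NC libraries there held 12 to 21 estimated counts, a mean under the floor, so that no fold is given although both contrasts were called (adjusted p = 6.41e-06 and 3.65e-10). In TGF-β CFs Ccl11 was at 0.423, 0.472 and 0.257 CPM with si-NC, 1.23, 0.928 and 0.791 CPM with si-IAMP-1 and 1.09, 1.0 and 1.31 CPM with si-IAMP-2, with log2 fold changes of 1.37 (SE 0.295, adjusted p = 0.00236) and 1.58 (SE 0.296, adjusted p = 0.000521). Ccl12, named here for its place between them in the cluster after its values were seen, held at most 33 estimated counts in any CF library.

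Ccl20, the CCR6 ligand, followed si-IAMP-1 rather than si-IAMP-2. It was at 0.656, 0.443 and 0.186 CPM with si-NC, 2.83, 3.29 and 2.68 CPM with si-IAMP-1 and 0.624, 0.612 and 0.856 CPM with si-IAMP-2 in untreated CFs. Every si-IAMP-1 library was above all others, and the si-IAMP-2 range overlapped that of si-NC. In IL-17 CFs Ccl20 was at 5.81, 6.09 and 6.27 CPM with si-NC, 46, 44.9 and 43.8 CPM with si-IAMP-1 and 11.4, 11 and 12.1 CPM with si-IAMP-2, and in TGF-β CFs at 12.4, 11.2 and 10.1 CPM with si-NC, 25.3, 20.7 and 24 CPM with si-IAMP-1 and 8.84, 10.2 and 9.84 CPM with si-IAMP-2. With si-IAMP-1 Ccl20 rose 6.85-fold in untreated, 7.42-fold in IL-17 and 2.1-fold in TGF-β CFs, with log2 fold changes of 2.78 (SE 0.328, adjusted p = 3.09e-06), 2.89 (SE 0.0621, adjusted p = 1.54e-15) and 1.07 (SE 0.0901, adjusted p = 1.31e-07). With si-IAMP-2 it was called only under IL-17, at 0.94 (SE 0.0606, adjusted p = 6.23e-10), and was at 0.70 (SE 0.327, adjusted p = 0.0884) in untreated and -0.21 (SE 0.0908, adjusted p = 0.102) in TGF-β CFs. The si-NC library with the highest untreated level, replicate 1, decided the untreated si-IAMP-2 contrast, since without it the log2 fold change was 1.15 with an adjusted p of 0.00998. Directly compared, the log2 difference of si-IAMP-2 from si-IAMP-1 was -2.07 (SE 0.316, adjusted p = 3.59e-05), -1.95 (SE 0.0592, adjusted p = 6.8e-14) and -1.28 (SE 0.0908, adjusted p = 2.96e-08) in untreated, IL-17 and TGF-β CFs.

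Cx3cl1, the membrane-bound chemokine, moved the other way and fell with both siRNAs in untreated and IL-17 CFs. It was at 79.3, 74.4 and 78.8 CPM with si-NC, 15.9, 17.7 and 14.8 CPM with si-IAMP-1 and 11.6, 9.96 and 10.6 CPM with si-IAMP-2 in untreated CFs. Under IL-17 it was at 107, 107 and 105 CPM with si-NC, 20.6, 19.1 and 17 CPM with si-IAMP-1 and 10.6, 10.3 and 13.5 CPM with si-IAMP-2, and under TGF-β, where its levels were closer together, at 128, 131 and 138 CPM with si-NC, 90.1, 92 and 89.9 CPM with si-IAMP-1 and 64.8, 62.2 and 63 CPM with si-IAMP-2. Every knockdown library was below every si-NC library of its table, and every si-IAMP-2 library below every si-IAMP-1 library. The log2 fold change was -2.26 (SE 0.0717, adjusted p = 4.38e-13) and -2.85 (SE 0.0738, adjusted p = 1.39e-14) in untreated CFs, 4.8-fold and 7.23-fold lower, and -2.49 (SE 0.0931, adjusted p = 1.44e-09) and -3.2 (SE 0.0967, adjusted p = 1.02e-10) in IL-17 CFs. In TGF-β CFs it was called with si-IAMP-2, at -1.05 (SE 0.0367, adjusted p = 2.82e-12), and was at -0.53 (SE 0.0363, adjusted p = 1.12e-08) with si-IAMP-1, inside the fold threshold. Endothelial cells are another known source of Cx3cl1. All 8 endothelial markers looked at reached 1 CPM in each CF group, none at 0, with summed levels in untreated CFs of 68.2 to 73.8 CPM with si-NC, 62.9 to 66.2 CPM with si-IAMP-1 and 70 to 73.4 CPM with si-IAMP-2. Their part in the Cx3cl1 difference was not tested. In these bulk samples fewer cells of a type and less RNA per cell cannot be told apart.

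Per 100 estimated counts of Cx3cl1 there were 0.553 ± 0.299 of Ccl20 in untreated si-NC CFs, 18.2 ± 0.418 with si-IAMP-1 and 6.54 ± 1.41 with si-IAMP-2 (SD, n = 3). In IL-17 CFs these ratios were 5.71 ± 0.279, 239 ± 17.2 and 102 ± 9.93, and in TGF-β CFs 8.51 ± 1.15, 25.7 ± 2.92 and 15.2 ± 1.4. In each table the ratio was lowest with si-NC and highest with si-IAMP-1. The counts are not per length, and the ratio is therefore compared between groups and not with 100.

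Ccl9, a CCR1 ligand, was called lower with si-IAMP-2 in all 3 tables and with si-IAMP-1 in none of them. It was at 71.2, 62.1 and 74.9 CPM with si-NC, 66, 54.9 and 58.8 CPM with si-IAMP-1 and 23.8, 24.6 and 28.7 CPM with si-IAMP-2 in untreated CFs. Under IL-17 it was at 77.3, 84.8 and 83.8 CPM with si-NC, 72.8, 71.8 and 76.2 CPM with si-IAMP-1 and 38.4, 37.1 and 38.1 CPM with si-IAMP-2, and under TGF-β at 26.3, 26.5 and 25.1 CPM with si-NC, 27.7, 26 and 23 CPM with si-IAMP-1 and 15.7, 15.2 and 17.9 CPM with si-IAMP-2. The si-IAMP-2 libraries were the 3 lowest of each table. Its log2 fold change with si-IAMP-2 was -1.43 (SE 0.0959, adjusted p = 3.18e-07), -1.1 (SE 0.0433, adjusted p = 8.3e-13) and -0.66 (SE 0.0748, adjusted p = 2.73e-06) in untreated, IL-17 and TGF-β CFs, and with si-IAMP-1 -0.21 (SE 0.093, adjusted p = 0.103), -0.15 (SE 0.0424, adjusted p = 0.00673) and -0.0095 (SE 0.074, adjusted p = 0.957). The difference between the siRNAs was called in each table, at -1.22, -0.95 and -0.65. Ccl9 is also made by macrophages. Of 13 macrophage and leukocyte markers looked at, 7 reached 1 CPM on average in each untreated group, and their summed level was 63.3 to 68.3 CPM with si-NC, 62.1 to 65.6 CPM with si-IAMP-1 and 78 to 81.4 CPM with si-IAMP-2. Aif1 was at 0 in all untreated si-NC and si-IAMP-1 libraries. With si-NC, si-IAMP-1 and si-IAMP-2 the summed level was 63.4 to 64, 69.4 to 73.5 and 79.3 to 88.1 CPM under IL-17. Under TGF-β it was 162 to 172, 130 to 143 and 143 to 151 CPM. The part of these cells in the Ccl9 differences was not tested.

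Between the 2 siRNAs, 4 of 7 genes were called in untreated CFs (Ccl8 and Ccl11 higher and Ccl9 and Ccl20 lower with si-IAMP-2), 5 of 7 in IL-17 CFs (the same 4 and Cx3cl1, lower) and 2 of 7 in TGF-β CFs (Ccl9 and Ccl20, lower). The shares of all genes called were 6.65%, 15.7% and 3.96%. Ccl8 was higher with si-IAMP-2 than with si-IAMP-1 by 1.02 (SE 0.178, adjusted p = 0.00014) on the log2 scale in untreated and 1.51 (SE 0.224, adjusted p = 6.47e-05) in IL-17 CFs. Ccl11 was higher by 2.43 (SE 0.249, adjusted p = 2.95e-07) in IL-17 CFs, and its untreated call (adjusted p = 0.0124) has no fold here, since the si-IAMP-1 mean was under the floor. Without untreated si-IAMP-2 replicate 3 neither Ccl8 (0.96) nor Ccl11 (adjusted p = 0.121) was called in untreated CFs, which left 2 calls, and without untreated si-IAMP-1 replicate 2 Ccl8 (0.83) was not called. Ccl7 differed between the siRNAs by -0.044 (SE 0.0529, adjusted p = 0.56) in untreated CFs, a difference within its error, and by -0.30 and 0.25 in IL-17 and TGF-β CFs, inside the threshold. Cx3cl1 differed by -0.59 in untreated and -0.52 in TGF-β CFs, which are no calls. Ccl2 differed by -0.11 in untreated, -0.37 in IL-17 and 0.55 in TGF-β CFs, the last just inside the threshold, and called without TGF-β si-IAMP-2 replicate 3 (0.59). In TGF-β CFs Ccl8 and Ccl11 differed by 0.13 (SE 0.0591, adjusted p = 0.129) and 0.21 (SE 0.282, adjusted p = 0.684).

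The stimuli were compared with the untreated cells under each siRNA in 1 fit of 2 tables, with a log2 fold change of 1 or more in size needed for a call. The cells of each stimulus come from a table of their own, and the TGF-β cells carry another source label, so that stimulus and experiment cannot be told apart in these values. IL-17 against untreated called 5 of 7 genes with si-NC (Ccl2, Ccl7, Ccl8, Ccl11 and Ccl20) and 4 of 7 with si-IAMP-1 and with si-IAMP-2 (those without Ccl8), all higher. The shares of 21219 genes called were 1.39%, 1.79% and 1.7%. The median log2 fold changes of the 7 genes were 2.96, 2.16 and 2.50, and the first was 2.19 without Ccl11, whose untreated si-NC libraries were all at 0. The second is the fitted value of Ccl11, whose untreated si-IAMP-1 mean was under the floor. The log2 fold change of Ccl2 was 2.96, 2.98 and 2.73 under si-NC, si-IAMP-1 and si-IAMP-2, that of Ccl7 3.43, 2.92 and 2.67, and that of Ccl20 3.82, 3.93 and 4.06. With si-NC, Ccl2 went from 211 ± 14.7 CPM to 1653 ± 34.4 CPM and Ccl20 from 0.428 ± 0.236 CPM to 6.06 ± 0.233 CPM (SD, n = 3). Ccl9 and Cx3cl1 differed by at most 0.57 in any of the 3 contrasts. Ccl8 was at 1.41 (SE 0.25, adjusted p = 0.000244) with si-NC and 0.037 (SE 0.216, adjusted p = 0.966) and 0.53 (SE 0.209, adjusted p = 0.108) with si-IAMP-1 and si-IAMP-2. Ccl11 in IL-17 si-NC CFs stayed under the floor on average, and no fold against the untreated zeros is given, while with si-IAMP-2 it rose by 2.5 (SE 0.367, adjusted p = 1.79e-05).

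TGF-β against untreated called 6 of 7 genes with si-NC (5 higher, Ccl9 lower), all 7 with si-IAMP-1 (6 higher, Ccl9 lower) and 5 of 7 with si-IAMP-2, all higher, beside 21.5%, 20.9% and 21% of 21508 genes. The medians of the 7 genes were 4.64, 2.98 and 3.26, and the first was 2.91 with Ccl11 at its bound. The medians of all genes lay between -0.012 and 0.061 in the 6 stimulus contrasts. On the log2 scale Ccl8 was higher by 6.38 (SE 0.16) with si-NC, from 0.396 ± 0.0515 CPM to 33.4 ± 0.685 CPM, and by 4.17 and 3.26 with the siRNAs. Ccl7 was higher by 4.64, 3.37 and 3.65, and Ccl2 by 2.91, 3.17 and 3.82. On the log2 scale Ccl20 rose by 4.7 (SE 0.258, adjusted p = 7.39e-11), 2.98 (SE 0.218, adjusted p = 3.32e-09) and 3.77 (SE 0.243, adjusted p = 6.43e-10) under si-NC, si-IAMP-1 and si-IAMP-2, with si-NC from 0.428 ± 0.236 CPM to 11.2 ± 1.15 CPM (SD, n = 3). Cx3cl1 differed by 0.76 (SE 0.0541, adjusted p = 8.95e-12) with si-NC, which is not a call, and rose by 2.49 and 2.55 with the siRNAs. Ccl9 fell with si-NC, with a log2 fold change of -1.43 (SE 0.0894, adjusted p = 1.57e-11), and was at -1.23 (SE 0.0892, adjusted p = 1.63e-10) with si-IAMP-1 and -0.67 (SE 0.09, adjusted p = 1.57e-06) with si-IAMP-2, the last not a call. Ccl11 was at least 2.59-fold higher with si-NC, taking the floor for the untreated zeros, and differed by 0.93 (SE 0.412, adjusted p = 0.0591) with si-IAMP-2. Without untreated si-IAMP-2 replicate 3 the latter was 1.33 (adjusted p = 0.0207) and was called. The summed level of the 13 macrophage and leukocyte markers was 162 to 172 CPM in TGF-β and 63.3 to 68.3 CPM in untreated si-NC CFs, with 6 and 7 of 13 at 1 CPM or more, and that of the 8 endothelial markers was 122 to 126 and 68.2 to 73.8 CPM. The part of these cells in the TGF-β differences was not tested.

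**Figure D4:**
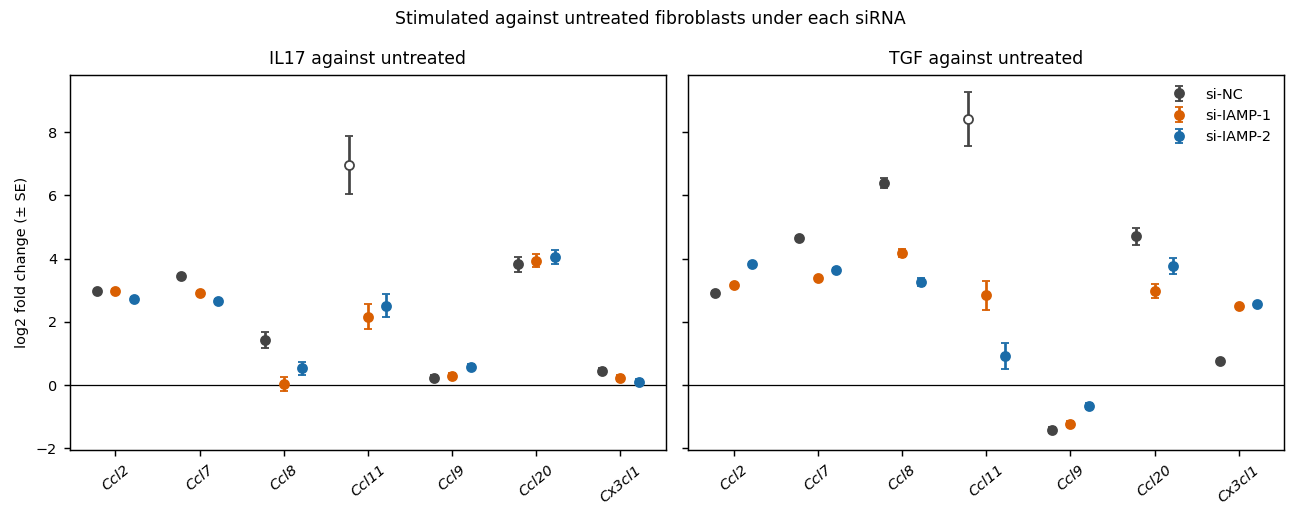
Log2 fold change of each gene in IL-17 (left) and TGF-β (right) CFs against untreated CFs under si-NC, si-IAMP-1 and si-IAMP-2, with standard errors (3 libraries per group). Open circles mark Ccl11 with si-NC, where the untreated libraries were all 0; under TGF-β the Ccl8 difference is 6.38 with si-NC and 3.26 with si-IAMP-2, and that of Cx3cl1 is 0.76 with si-NC and 2.55 with si-IAMP-2.

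Whether the effect of an siRNA differed with the stimulus was tested as an interaction, called at an absolute difference of at least 1. Under TGF-β the effect of si-IAMP-1 differed from that in untreated CFs for 5 of 7 genes (Ccl7, Ccl8, Ccl11 and Ccl20 lower and Cx3cl1 higher) and that of si-IAMP-2 for 3 of 7 (Ccl8, Ccl11 and Cx3cl1), where 2.36% and 5.09% of genes were called. For Cx3cl1 the differences were 1.73 (SE 0.0779, adjusted p = 1.71e-13) and 1.79 (SE 0.0787, adjusted p = 3.01e-14), so that the fall with the siRNAs was smaller on the log2 scale under TGF-β. For Ccl8 they were -2.21 (SE 0.208, adjusted p = 3.89e-07) and -3.12 (SE 0.201, adjusted p = 1.14e-09), and for Ccl7 -1.27 (SE 0.0676, adjusted p = 5.44e-12) and -0.99 (SE 0.0676, adjusted p = 7.07e-11), a smaller rise on the log2 scale under TGF-β in each case. These are relative changes. In untreated CFs mean Ccl7 went from 23.8 CPM with si-NC to 117 and 114 CPM with the siRNAs, and in TGF-β CFs from 600 to 1217 and 1446 CPM. Mean Ccl8 went from 0.396 to 2.65 and 5.38 CPM in untreated and from 33.4 to 47.8 and 52.3 CPM in TGF-β CFs. The Ccl7 difference for si-IAMP-2 lay just inside the threshold. It passed the threshold, at -1.0 to -1.02, without untreated si-IAMP-2 replicate 1 or 2, untreated si-NC replicate 1, or TGF-β si-NC replicate 1 or 2. It passed also with no count filter, with a filter at 1 CPM and with values divided by 6. For Ccl2 the differences were 0.26 (SE 0.074, adjusted p = 0.0166) and 0.91 (SE 0.0742, adjusted p = 5.89e-09), and for Ccl9 0.20 (SE 0.124, adjusted p = 0.337) and 0.76 (SE 0.126, adjusted p = 8.48e-05), none of them a call. Ccl20 differed by -1.72 (SE 0.327, adjusted p = 0.00114) for si-IAMP-1 and by -0.93 (SE 0.35, adjusted p = 0.0566) for si-IAMP-2, and the latter was -1.35 with an adjusted p of 0.00148 without untreated si-NC replicate 1. Under IL-17 the effect differed for 2 of 7 genes with si-IAMP-1 (Ccl8 and Ccl11, both lower) and 1 of 7 with si-IAMP-2 (Ccl11), where 0.189% and 0.165% of genes were called. The Ccl8 difference with si-IAMP-1 was -1.37 (SE 0.33, adjusted p = 0.0256) and was lost when any 1 of 7 libraries was left out, with adjusted p of 0.0691 to 0.0931. These were untreated si-IAMP-1 replicates 1 and 3, untreated si-NC replicates 1 and 3, IL-17 si-IAMP-1 replicates 2 and 3 and IL-17 si-NC replicate 3. With si-IAMP-2 the Ccl8 difference was -0.88 (SE 0.325, adjusted p = 0.274). The fitted Ccl11 differences rest on untreated si-NC libraries that are all at 0, and they have no interpretable size. Both Ccl11 calls under IL-17 were lost when the values were divided by 6, to count read pairs (adjusted p of 0.42 and 0.582). That of si-IAMP-2 was lost also with DESeq2 (adjusted p = 0.0596), with the replicate number as a block (adjusted p = 0.0573) and when any 1 library but untreated si-IAMP-2 replicate 1 was left out. That of si-IAMP-1 was lost without untreated si-IAMP-1 replicate 3, any untreated si-NC library, IL-17 si-IAMP-1 replicate 3 or IL-17 si-NC replicate 1, with adjusted p of 0.051 to 0.0991. The Ccl11 difference under TGF-β for si-IAMP-1 was lost with values divided by 6 (adjusted p = 0.0684). For Ccl2, Ccl9, Ccl20 and Cx3cl1 no difference under IL-17 was called, the largest being -0.34 (SE 0.128, adjusted p = 0.316) for Cx3cl1 and 0.34 (SE 0.109, adjusted p = 0.186) for Ccl9, both with si-IAMP-2. Ccl7 differed under IL-17 by -0.51 (SE 0.0647, adjusted p = 2.95e-05) and -0.76 (SE 0.0647, adjusted p = 6.46e-08), less than the threshold of 1.

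Other genes of the pathway were taken from 3 lists: 16 other CC and XC ligands, 12 receptors, and 8 atypical receptors and proteases. Ccl17, a CCR4 ligand, was at 2.35 ± 0.121 CPM with si-NC, 0.981 ± 0.116 CPM with si-IAMP-1 and 0.573 ± 0.11 CPM with si-IAMP-2 in untreated CFs (SD, n = 3), and it fell in all 6 contrasts against si-NC, with log2 fold changes of -0.80 to -2.03. Ccl6 fell with si-IAMP-1 in untreated and IL-17 CFs, with log2 fold changes of -1.25 (SE 0.143, adjusted p = 2.26e-06) and -1.38 (SE 0.202, adjusted p = 4.67e-05), and was at -0.31 (SE 0.139, adjusted p = 0.075) and -0.21 (SE 0.194, adjusted p = 0.411) with si-IAMP-2. Ccl5, an attractant of T cells, rose in TGF-β CFs with si-IAMP-1, by 0.80 (SE 0.0842, adjusted p = 2.17e-06), and fell with si-IAMP-2 in untreated and IL-17 CFs, at -1.44 and -1.31, from levels under 1 CPM. In number, 2 of 6 tested ligands were lower in each untreated contrast, 2 and 3 of 9 lower under IL-17, 1 higher and 1 lower of 9 with si-IAMP-1 under TGF-β and 1 of 9 lower with si-IAMP-2. Of all genes, 2.61% and 7.23% were lower in untreated and 7.97% and 13.7% in IL-17 CFs, and in TGF-β CFs 2.45% were higher and 1.91% lower with si-IAMP-1 and 5.44% lower with si-IAMP-2. The last of the falls with si-IAMP-2 under IL-17 was that of Ccl12, named after its values were seen, which was at 0 in all 3 knockdown libraries and at 0 to 33 estimated counts with si-NC. The median log2 fold changes of these ligands were -0.59 and -0.13 in untreated, -0.49 and -0.21 in IL-17 and 0.10 and -0.094 in TGF-β CFs. TGF-β against untreated called 6 of 9 higher under each siRNA, where 12.5% to 13% of all genes were higher, among them Ccl3 (4.03 ± 0.645 CPM), Ccl5 (18.6 ± 0.586 CPM), Ccl6 (26.3 ± 2.24 CPM) and Ccl17 (22.2 ± 1.21 CPM in TGF-β si-NC CFs), the other two being Ccl4 and Ccl19 with under 1 CPM, named after their values were seen.

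The receptors of these ligands were nearly absent from CFs. Of 12 CC, CX3C and XC receptor genes, Ccr1 and Xcr1 alone reached 1 CPM on average in any CF group. Ccr6 was at 0 in all 35 libraries, Ccr2 averaged at most 0.00888 CPM in a CF group, and Cx3cr1 at most 0.203 CPM. Ccr1 was called higher with si-IAMP-2 under IL-17, at 0.84 (SE 0.227, adjusted p = 0.00498), with 1.13 ± 0.265 CPM and 2.0 ± 0.141 CPM. The only other receptor called against si-NC was Xcr1, higher with si-IAMP-1 under TGF-β, at 1.86 (SE 0.575, adjusted p = 0.026), where it stayed under 1 CPM. Against untreated CFs, Xcr1 was called lower with TGF-β under si-NC and si-IAMP-2, at -3.05 and -1.09, and higher with IL-17 under si-IAMP-2, at 1.11. In hearts Cx3cr1 averaged 1.31 ± 0.453 CPM in the Het and 0.917 ± 0.52 CPM in the KO animals (SD, n = 4).

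Among the atypical receptors and proteases that bind, shed or trim these ligands, Ackr4, a scavenger of CC chemokines, fell with both siRNAs in untreated and IL-17 CFs and with si-IAMP-2 in TGF-β CFs. It went from 16.7 ± 1.8 CPM to 1.59 ± 0.112 CPM and 2.01 ± 0.293 CPM in untreated CFs (SD, n = 3), with log2 fold changes of -3.39 (SE 0.124, adjusted p = 2.39e-12) and -3.05 (SE 0.121, adjusted p = 2.02e-12). Dpp4, a peptidase that trims chemokine ends, rose with si-IAMP-1 in untreated and IL-17 CFs, by 1.07 (SE 0.122, adjusted p = 1.92e-06) and 0.79 (SE 0.113, adjusted p = 1.87e-05). Ccrl2, which binds without signalling, fell with si-IAMP-1 and rose with si-IAMP-2 under IL-17, at -0.84 (SE 0.127, adjusted p = 3.35e-05) and 0.67 (SE 0.123, adjusted p = 0.000184), and it was called higher with IL-17 than without under all 3 siRNAs. The sheddases of Cx3cl1, Adam10 and Adam17, were at 266 ± 4.6 CPM and 103 ± 4.43 CPM with si-NC and were not called. Of the 8 genes, 1 was higher and 1 lower with si-IAMP-1 and 1 lower with si-IAMP-2 in untreated CFs, beside 4.76% and 10.7% of all genes in either direction. TGF-β against untreated called 3 of the 8 higher and 1 lower with si-NC, 3 higher with si-IAMP-1 and 4 higher with si-IAMP-2, where 12.5% to 13% of all genes were higher. Dpp4 rose there on the log2 scale by 2.66, 1.75 and 1.99 under the 3 siRNAs, with si-NC from 3.74 ± 0.355 CPM to 23.8 ± 1.16 CPM (SD, n = 3), and Ccrl2 by 2.12, 2.66 and 2.38. Ackr4 fell with si-NC, to 4.66 ± 0.463 CPM, with a log2 fold change of -1.86 (SE 0.14, adjusted p = 2.67e-11). The other gene called higher under all 3 siRNAs was Ackr1, with under 1 CPM, named after its values were seen. Mmp2, which cleaves Ccl7, was called in the TGF-β against untreated contrast with si-IAMP-2, at 1.1 (SE 0.0398, adjusted p = 1.97e-17), and in no siRNA contrast.

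The genes whose levels followed each of the 7 most closely were looked for among 13329 genes of at least 1 CPM, by Pearson's r of log2(CPM + 1) over the 27 CF libraries after the mean of each table was subtracted. The libraries share tables and siRNA groups, and r is given as a description. For Ccl7 they were Slc9a8 (0.99), Fgfr1 (0.99) and Socs5 (0.99), and for Cx3cl1 Fgl2 (0.99), Crot (0.98) and Jak3 (0.98). For Ccl8 they were Snhg11, Scin and Fbxo22 (0.97 each), for Ccl9 Glo1, Tnks2 and Prim1 (0.97 each) and for Ccl20 Tmem150a, Nectin2 and Arsa (0.94 each). Ccl2 and Ccl11 had lower values, with Esm1 (0.92), Mmd (0.90) and Trib2 (0.90) for Ccl2 and Mccc1 (0.91), Tax1bp1 (0.90) and Flrt2 (0.90) for Ccl11. None of the 7 was among the 3 genes closest to another of the 7.

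In the hearts no member was called between KO and Het. The edgeR test over 16675 genes called 0 of the 5 members that passed the count filter, beside 0% of all genes, and at an unadjusted p under 0.05 there were 0 members and 601 genes. DESeq2 called 0 of the 6 members it tested and 3 of 29699 genes, 0.0101%. Ccl9 was at 11.4, 12.8, 13.5 and 14.1 CPM in the 4 Het and 11.6, 17.5, 10.6 and 16.8 CPM in the 4 KO hearts, and Cx3cl1 at 10.4, 10.7, 9.05 and 10.9 CPM and 8.65, 8.03, 10.9 and 10.3 CPM. The 2 groups overlapped for both genes. The log2 fold change, KO against Het, was 0.12 (SE 0.165, adjusted p = 1) for Ccl9 and -0.12 (SE 0.107, adjusted p = 1) for Cx3cl1. Ccl2 stood at 0.794, 1.48, 0.977 and 1.71 CPM in the Het and 0.87, 1.64, 0.37 and 0.819 CPM in the KO hearts, with a log2 fold change of -0.43 (SE 0.398, adjusted p = 1). Ccl7 stood at 0.585, 0.567, 0.552 and 1.2 CPM in the Het and 0.783, 1.09, 0.247 and 0.775 CPM in the KO hearts, and Ccl11 at 0.627, 0.61, 0.467 and 0.797 CPM and 0.87, 0.841, 0.987 and 0.603 CPM. Both genes overlapped between the groups, with log2 fold changes of -0.015 (SE 0.404, adjusted p = 1) and 0.39 (SE 0.224, adjusted p = 1). Ccl8 had 0, 0, 6 and 7 counts in Het and 0, 0, 6 and 0 in KO hearts, and Ccl20 was listed at 0 in all 8, so that both were left out by the filter. Ccl2 had 9 to 43 counts in a heart. Its siRNA contrasts in untreated CFs, -0.22 and -0.33 on the log2 scale, were smaller than its SE of 0.398 in hearts. The macrophage and leukocyte markers summed to 220 to 265 CPM in Het and 213 to 236 CPM in KO hearts. The smallest levels rest on estimated counts, in which a listed 0 may also be a failed estimate.

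**Figure D5:**
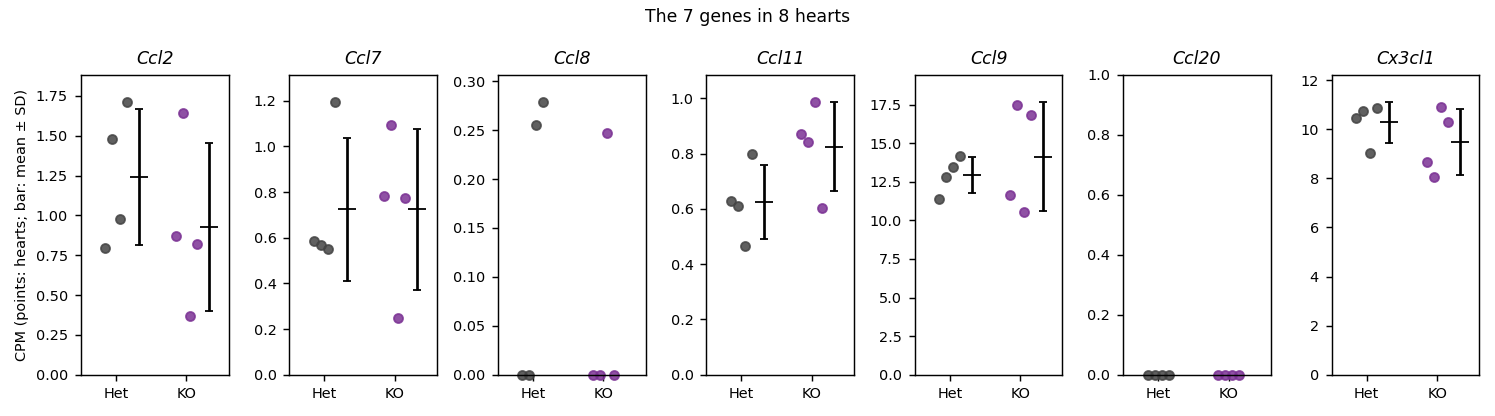
CPM of each gene in the 4 Het and 4 KO hearts on linear axes that start at 0; points are hearts and the bars beside them are mean ± SD, not drawn for Ccl8 and Ccl20, which hold zeros. The Het and KO points overlap in each panel, and Ccl20 is 0 in all 8 hearts.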

How the data were processed

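RNA-Seq of poly(A) RNA was deposited as 4 gene tables, 1 each for untreated, IL-17 and TGF-β CFs (9 libraries each) and hearts (8 libraries). The sources used here name cutadapt, HISAT2, StringTie and DESeq2 and the build GRCm38. The authors deposited estimated counts per gene, whole numbers in which 1 read pair was assumed here to give up to 6 in CFs. The deposited values were used as they were, with totals of 104139670 to 119232309 in CF and 23497027 to 23857313 in heart libraries. Floors cover counting error only.

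Groups came from the sample labels. The edgeR quasi-likelihood test (edgeR 4.0.16, limma 3.58.1, R 4.3.3; TMM, filterByExpr, robust fit) was run on all genes, with the 9 libraries of a table, the 18 of 2 tables, or the 8 hearts in 1 fit. Standard errors are the log2 fold change divided by the root of F. A call needed a Benjamini-Hochberg adjusted p of 0.05 or less over all genes tested and a log2 fold change of 1 or more in size, or 0.585 for siRNA contrasts under IL-17 and TGF-β, where the study's methods gave that fold for IL-17 and none was found for TGF-β and hearts. In all, 20 comparisons were made. All 7 genes are named in every comparison, and a gene of the other lists where it was called in at least 1 comparison and had at least 1 CPM in a group. Some receptor values are not reported here. The 7 genes and the other lists were chosen with earlier results of these data known. Replicates of a group differed beyond sampling noise in each pair. The fits were tested on simulated counts.

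The alternatives were DESeq2 1.42.0, RLE size factors, no filter or a filter at 1 CPM, the other fold threshold, values divided by 6, all 27 CF libraries in 1 fit, only the 2 groups compared, the replicate number as a block, and leaving out each library. Same-numbered replicates did not deviate together, with correlations of -0.207 to 0.217, so the block was not used for the results. Heart columns carry no replicate numbers and are lettered a to d.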

Additional observations from a re-analysis of the deposited data

Results flagged for a closer look

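The interaction test called a difference in the siRNA effect between stimuli for the following genes. Relative to untreated CFs, the si-IAMP-1 effect under TGF-β differed on the log2 scale by -1.27 for Ccl7, -2.21 for Ccl8, -5.58 for Ccl11, -1.72 for Ccl20 and 1.73 for Cx3cl1. The si-IAMP-2 effect under TGF-β differed by -3.12 for Ccl8, -7.48 for Ccl11 and 1.79 for Cx3cl1. Under IL-17 the si-IAMP-1 effect differed by -1.37 for Ccl8 and -4.8 for Ccl11, and the si-IAMP-2 effect by -4.46 for Ccl11. The Ccl11 values are fitted against untreated si-NC libraries that were all at 0 and are no measure of size. Since each stimulus has a table of its own, stimulus and table cannot be told apart.

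In hearts 1 sample stood far from the other 3 of its group in 2 cases. For Ccl7 the gap of Het heart d to the nearest Het heart was 0.949 of the range of the 4 Het values. For Ccl8 it was 1 in KO, where 1 heart held 6 counts and the others 0. With the others tied at 0, any value above 0 gives this ratio. Among untied, normally distributed values chance alone flags about 1 in 20 groups, a rate that does not hold for Ccl8. Without Het heart d the Ccl7 difference was 0.34 (adjusted p = 0.979).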

How the results depend on the processing

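Over all alternatives, 2006 of 2085 member values kept their direction and their side of the threshold, 42 fell below it, 23 passed it and 14 changed sign. With the other fold threshold (0.585 for 1, or 1 for 0.585) the members called between the siRNAs went from 5 to 3 under IL-17. Under TGF-β they went from 6 to 3 for si-IAMP-2 against si-NC and from 2 to 1 between the siRNAs. In the interactions of si-IAMP-2 they went from 1 to 2 under IL-17 and from 3 to 6 under TGF-β. Other changes were from 4 to 5 between the siRNAs in untreated CFs and from 6 to 5 for si-IAMP-2 against si-NC under IL-17. For TGF-β against untreated the count went from 6 to 7 with si-NC and from 5 to 6 with si-IAMP-2. The share of all genes called then went from 4.76% to 10.7% up to 12.1% to 21.1% in untreated siRNA contrasts, from 3.96% to 21.7% down to 1.16% to 11.3% in those of IL-17 and TGF-β, from 1.39% to 21.5% up to 3.08% to 34.9% in the stimulus contrasts and from 0.165% to 5.09% up to 0.448% to 11.6% in the interactions. A filter at 1 CPM took the calls of si-IAMP-1 against si-NC in untreated CFs from 936 to 592 genes, with fewer genes tested. With values divided by 6 the interactions under IL-17 held 1 member for si-IAMP-1 and 0 for si-IAMP-2. DESeq2 and the replicate block each gave 0 for si-IAMP-2, where Ccl11 was lost. The replicate number as a block changed no other member's call, and same-numbered samples correlated at -0.207 to 0.217. Such correlations cannot settle whether same-numbered samples share more than a number. No paired analysis was possible because the heart columns carry no replicate numbers, for KO against Het.

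Leaving out 1 library at a time gave 2 to 4 members between the siRNAs in untreated CFs. In the interactions it gave 0 to 2 for si-IAMP-1 and 0 to 1 for si-IAMP-2 under IL-17. For si-IAMP-2 under TGF-β the interaction held 3 to 5. For si-IAMP-2 against si-NC there were 5 to 6 members in untreated, 6 to 7 in IL-17 and 5 to 6 in TGF-β CFs. Under TGF-β there were 3 to 4 for si-IAMP-1 against si-NC and 2 to 3 between the siRNAs. For TGF-β against untreated with si-IAMP-2 there were 5 to 6. A lone sample did not arise, since each group kept at least 2 libraries. The sign changed for values near 0 that were not called. These were Ccl9 with si-IAMP-1 under TGF-β (-0.0696 to 0.0603), Ccl8 for IL-17 against untreated with si-IAMP-1 (-0.15 to 0.15), Cx3cl1 for IL-17 against untreated with si-IAMP-2 (-0.018 to 0.19) and Ccl7 in hearts (-0.29 to 0.34). In the interactions under IL-17 they were Ccl2 (-0.025 to 0.069), Ccl20 (-0.33 to 0.48) and Ccl9 (-0.00063 to 0.13) for si-IAMP-1 and Ccl20 (-0.21 to 0.60) for si-IAMP-2. The cause was not tested. The depth of a CF library limits Ccl11, Ccl20 and Ccl8 in untreated si-NC cells, and that of a heart library all members but Ccl9 and Cx3cl1.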
